A study of Mus musculus with 8 samples.

Results

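Nuclear speckles are granules of the nucleus that store and modify splicing factors, many of them proteins rich in arginine and serine dipeptides. Paraspeckles lie beside them and form on the long non-coding RNA Neat1. Several transcripts that encode speckle proteins, or that are held there, keep introns when they are not fully spliced and then stay in the nucleus. Hepatic signals of 10 genes, the members below, tied to these granules or to intron retention were examined: Malat1, Neat1, Pnisr, Rsrp1, Leng8, Wsb1, Nktr, Ccnl1, Ccnl2 and Son. They were chosen by their names and by their measured differences in these same 8 liver samples. Pnisr, Leng8, Wsb1 and Rsrp1 were already known to stand on the higher side with hydrogen water in these samples. Their values, differences and correlations are therefore a description and carry no test. Of the 10 genes, 9 had a probe set that named the gene alone, out of 19938 genes so named; each of the 9 had 1 such probe set, and Neat1 is not analysed here.

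There were 4 liver samples of the hydrogen water group and 4 of the control group, all from C57BL6 mice that had fasted for 17 h. Mice of the hydrogen water group had drunk water with dissolved hydrogen for 4 weeks from an age of 7 weeks. Total RNA of each sample was read on 1 Affymetrix Mouse Gene 1.0 ST array, which sums probes spread along a transcript, so a spliced and an intron-retaining form of a gene were not separated. All values are log2 signals unless stated. Neither the sex of the mice nor what the control mice drank is stated, and the treatment text is the same for all 8 samples. Nothing in the labels ties an array to 1 mouse, so the spread between arrays, and any p-value, may be partly technical.

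Hepatocyte markers were bright on all arrays, with means over the 8 arrays between 13.57 (Fgb) and 14.43 (Apoa1). Their mean around each gene's own average lay between −0.02 and 0.02 on every array. Whether signals this high still follow a change in amount was not tested. Array medians ran from 5.27 to 5.37. A pair of arrays stood apart from the rest. Hydrogen water 4 carried the lowest median of 54 small nucleolar RNAs (−0.90 around each gene's mean, against −0.29 to 0.30 on the other 7 arrays), and control 3 had the lowest weight in a fit that weights arrays (0.42, against 0.73 to 1.67). The members' differences are therefore also given without these arrays.

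The start regions of the members are shown first. Whether they bear on the members' signals was not tested. RefSeq promoters of assembly GRCm38.p6, each reaching from 250 bases before a start to 50 after it, were found for 8 members, 10 promoters in all. Pnisr and Neat1 are only named. The sequences below are those of the long non-coding RNA, of the 3 members with a promoter whose differences were largest among the coding genes, and of a cyclin. They run 5′ to 3′ on the strand of the gene, with capitals on any match, on either strand, to 1 of 7 motifs. These were the TATA box TATAAA, the CCAAT box, the GC box core GGGCGG, the cyclic AMP response element TGACGTCA, the ETS core CCGGAA, the E-box CACGTG and the palindrome CTCGCGAG.
Malat1, chr19:5802623-5802922, minus strand: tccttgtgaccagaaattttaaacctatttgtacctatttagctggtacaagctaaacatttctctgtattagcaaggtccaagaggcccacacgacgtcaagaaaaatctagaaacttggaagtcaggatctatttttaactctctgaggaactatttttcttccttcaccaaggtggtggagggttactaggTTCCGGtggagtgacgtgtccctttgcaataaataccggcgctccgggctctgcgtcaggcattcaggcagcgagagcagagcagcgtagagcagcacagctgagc
Leng8, chr7:4136806-4137105, plus strand: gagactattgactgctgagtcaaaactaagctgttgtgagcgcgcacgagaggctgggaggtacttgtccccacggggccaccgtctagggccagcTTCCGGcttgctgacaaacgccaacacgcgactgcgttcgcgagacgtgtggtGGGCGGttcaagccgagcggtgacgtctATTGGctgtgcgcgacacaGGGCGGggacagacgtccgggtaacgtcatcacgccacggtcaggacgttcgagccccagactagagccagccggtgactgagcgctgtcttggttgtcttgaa
Wsb1, chr11:79254646-79254945, minus strand: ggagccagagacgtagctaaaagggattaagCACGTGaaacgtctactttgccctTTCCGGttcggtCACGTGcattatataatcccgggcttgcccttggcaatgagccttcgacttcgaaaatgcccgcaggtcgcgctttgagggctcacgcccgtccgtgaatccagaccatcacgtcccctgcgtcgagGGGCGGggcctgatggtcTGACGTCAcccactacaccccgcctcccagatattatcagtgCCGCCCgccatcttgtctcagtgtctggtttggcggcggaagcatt
Rsrp1, chr4:134923375-134923674, plus strand: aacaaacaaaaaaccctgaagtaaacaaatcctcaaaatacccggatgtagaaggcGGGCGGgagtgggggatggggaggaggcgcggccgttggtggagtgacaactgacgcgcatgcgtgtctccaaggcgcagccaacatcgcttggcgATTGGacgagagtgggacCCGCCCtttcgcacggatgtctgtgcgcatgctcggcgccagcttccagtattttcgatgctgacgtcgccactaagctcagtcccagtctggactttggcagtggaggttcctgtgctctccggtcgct
Ccnl1, chr3:65958200-65958499, minus strand: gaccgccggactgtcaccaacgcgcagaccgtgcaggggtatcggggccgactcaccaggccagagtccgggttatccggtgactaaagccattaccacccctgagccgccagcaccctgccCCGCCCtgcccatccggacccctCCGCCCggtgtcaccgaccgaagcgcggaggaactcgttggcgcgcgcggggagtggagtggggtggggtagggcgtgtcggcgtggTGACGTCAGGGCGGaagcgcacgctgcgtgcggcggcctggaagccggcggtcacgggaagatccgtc

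Of the 10 promoters of members, 7 held GGGCGG, found in 35.7% of all 32851 promoters of the table. CCAAT was in 6 of the 10, against 37.4% of all promoters. CCGGAA was in 5, against 14.9%. TGACGTCA was in 2 of the 10, those of Wsb1 and Ccnl1, against 1.79% of all promoters. Its first base stood at position −38 in Wsb1 and −18 in Ccnl1, counted from the start, and in Ccnl1 the GGGCGG that follows it begins with the next base. CACGTG was in 1 (Wsb1) against 7.15%, CTCGCGAG in 1 (Nktr) against 0.919%, and TATAAA in 0 against 13.6%. The members' promoters were also rich in G and C: 8 of 10 lay above the median of 52.7%, and the 10 ranged from 36.3% (a downstream start of Wsb1) to 71.7% (a downstream start of Leng8). Copies of GGGCGG overlapped each other in Ccnl2. A match is a run of letters and not evidence that a factor binds there, and whether base composition accounts for these counts was not tested.

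Malat1, a long non-coding RNA that collects in nuclear speckles (transcript cluster 10465244), had the largest difference of the 9. Its signal was 9.81, 9.18, 10.39 and 10.92 on hydrogen water 1 to 4, against 9.16, 9.14, 7.27 and 8.95 on controls 1 to 4. The lowest hydrogen water array lay 0.02 above the highest control, so the groups only just failed to meet, and control 3 stood far below the other controls. Malat1 averaged 10.08 ± 0.75 across hydrogen water arrays and 8.63 ± 0.91 across control arrays (SD, n = 4 each). The difference of 1.45 (SE 0.43) is 2.72-fold on the linear scale. With all 8 arrays only 1 gene of the 19938 had a larger positive difference. This rank of 2 carries no test, since the members were picked with this contrast in view. The Malat1 difference was 0.99 without control 3, 1.16 without hydrogen water 4 and 0.71 without both. Its rank was then 8, 3 and 26.

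Pnisr, which encodes a nuclear protein rich in serine and arginine (transcript cluster 10503570), showed the widest gap between the groups. It read 7.42, 6.88, 7.42 and 7.88 with hydrogen water, against 6.45, 6.35, 6.50 and 6.43 in controls. Every hydrogen water array lay at least 0.37 above every control. The 4 controls were tightly grouped (SD 0.06), whereas the hydrogen water arrays spread over a full unit (SD 0.41). The difference of 0.97 (SE 0.17), a fold of 1.96, was 0.81 without hydrogen water 4, 0.99 without control 3 and 0.83 without both.

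Wsb1 encodes a WD-repeat protein with a SOCS box, a part through which such proteins join ubiquitin ligases (transcript cluster 10388938). Its signal was 8.70, 8.17, 8.65 and 8.61 with hydrogen water, against 7.79, 7.74, 7.10 and 7.92 in controls. The groups lay 0.24 apart, with hydrogen water 2 below the other 3 of its group and control 3 below the other controls. The difference was 0.89 (SE 0.18). It differed little without hydrogen water 4 (0.87) and more without control 3 (0.71) or without both (0.69).

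Rsrp1, a gene for another arginine- and serine-rich protein (transcript cluster 10509014), read 10.58, 9.89, 10.30 and 10.60 with hydrogen water, against 9.73, 9.84, 9.14 and 9.54 in controls. Hydrogen water 2 lay only 0.05 above control 2. The difference of 0.78 (SE 0.18) was 0.69 without hydrogen water 4, 0.64 without control 3 and 0.55 without both. Leng8, named for its place in the leukocyte receptor cluster (transcript cluster 10549615), read 7.67, 7.00, 7.87 and 8.16 with hydrogen water, against 6.66, 6.46, 6.47 and 7.05 in controls. Here the groups overlapped by 1 array on each side, hydrogen water 2 and control 4. Its difference was 1.01 (SE 0.22), and 0.79 without control 3 and hydrogen water 4.

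**Figure D1:**
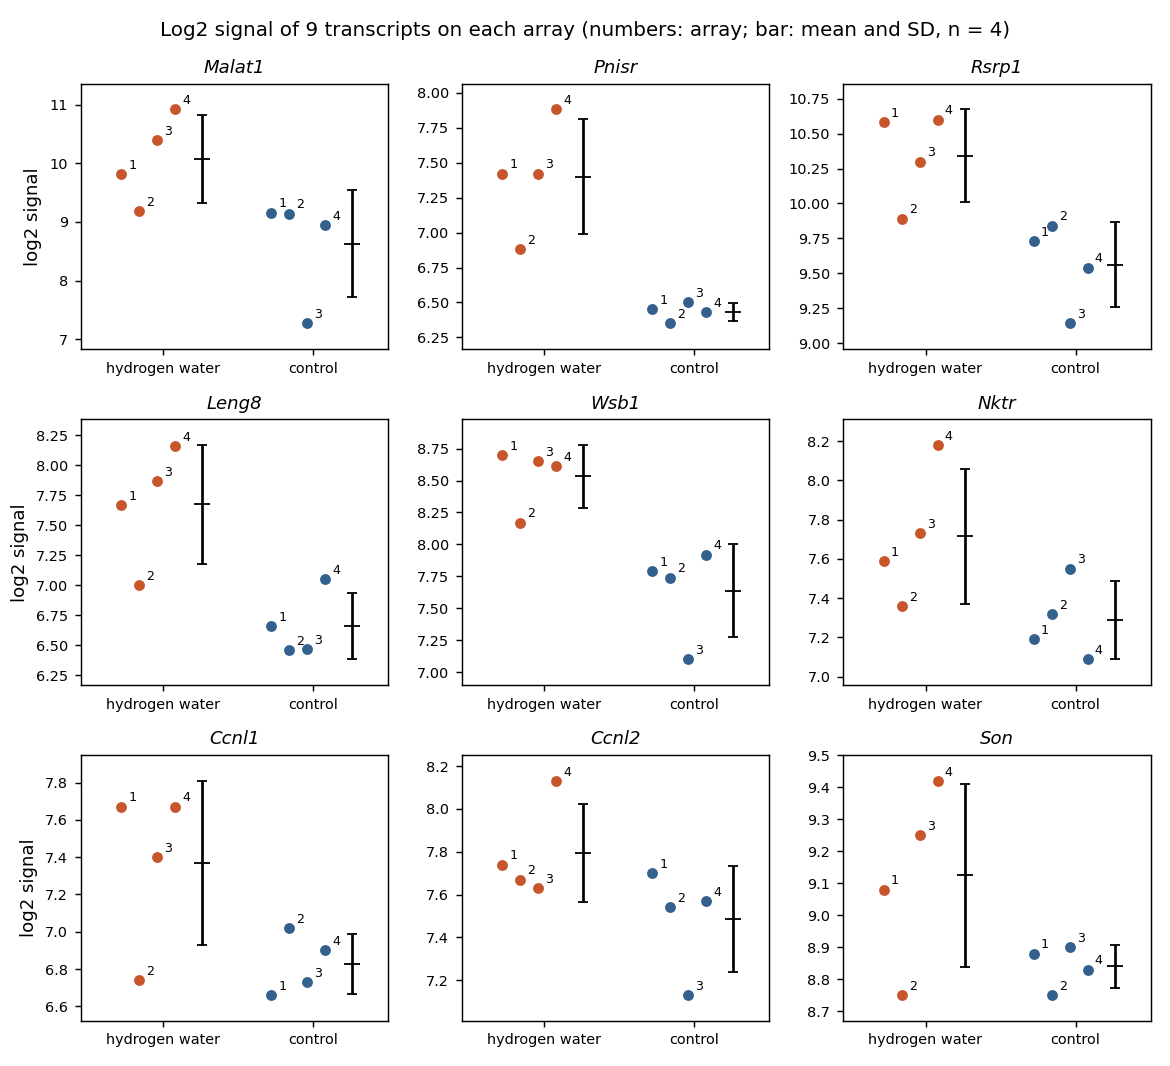
Log2 signal (vertical axis, a scale of its own in each panel) of the 9 measured transcripts on the 4 hydrogen water and 4 control arrays. Numbers name the arrays, and bars give the mean and SD of 4. Hydrogen water 2 sits at the bottom of its group in 8 of the 9 panels and hydrogen water 4 at the top of all arrays in 8.

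The cyclins L1 and L2 carry arginine- and serine-rich domains, sit in nuclear speckles and pair with the kinase CDK11. Ccnl1 (transcript cluster 10498531) read 7.67, 6.74, 7.40 and 7.67 with hydrogen water, against 6.66, 7.02, 6.73 and 6.90 in controls. Hydrogen water 2 lay among the controls, and the other 3 lay above all of them. The difference was 0.54 (SE 0.19), and 0.41 without control 3 and hydrogen water 4. Ccnl2 (transcript cluster 10511156) read 7.74, 7.67, 7.63 and 8.13 with hydrogen water, against 7.70, 7.54, 7.13 and 7.57 in controls. Apart from the highest hydrogen water array and the lowest control, the 6 remaining values ran from 7.54 to 7.74 with the groups interleaved. Its difference of 0.31 (SE 0.15) was 0.20 without hydrogen water 4, 0.19 without control 3 and 0.08 without both.

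Son encodes a large scaffold protein of nuclear speckles (transcript cluster 10436873). Its signal was 9.08, 8.75, 9.25 and 9.42 with hydrogen water, against 8.88, 8.75, 8.90 and 8.83 in controls. Hydrogen water 2 was level with the lowest control, and the difference of 0.28 (SE 0.14) was 0.19 without hydrogen water 4 and 0.21 without both arrays. Nktr encodes a cyclophilin, a prolyl isomerase, with a long arginine- and serine-rich tail (transcript cluster 10590389). It read 7.59, 7.36, 7.73 and 8.18 with hydrogen water, against 7.19, 7.32, 7.55 and 7.09 in controls. Its difference was 0.43 (SE 0.17), but 0.27 without hydrogen water 4, 0.51 without control 3 and 0.36 without both. Control 3, the lowest array for Malat1, Rsrp1, Wsb1 and Ccnl2, was the highest control for Nktr, Son and Pnisr.

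**Figure D2:**
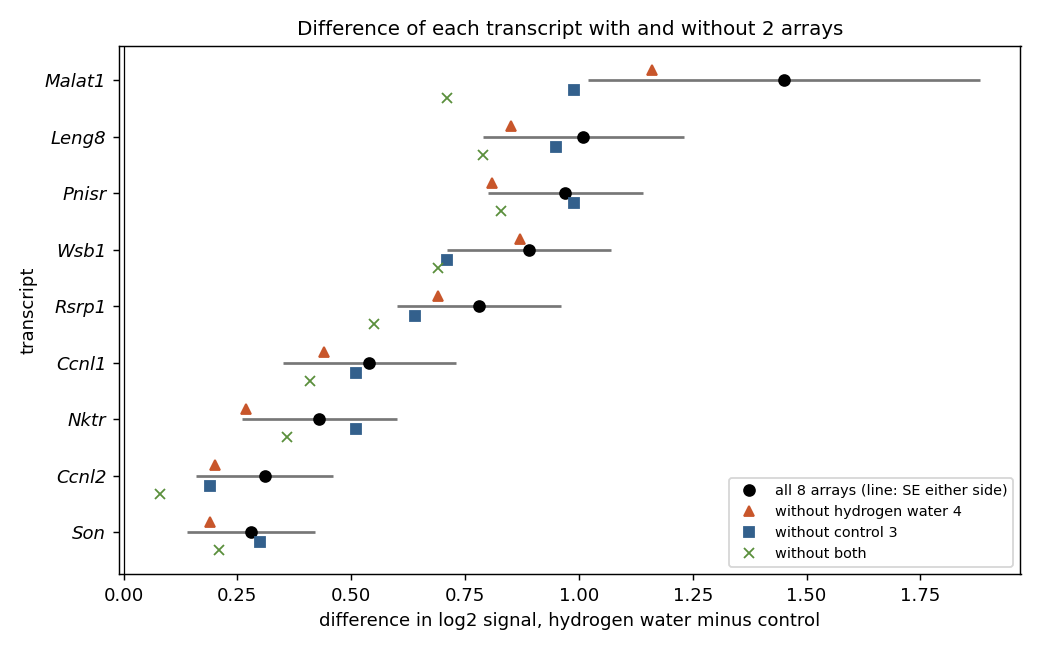
Difference in log2 signal, hydrogen water minus control (horizontal axis), of each transcript with all 8 arrays (points, with 1 SE on either side) and without hydrogen water 4, without control 3 or without both. All differences lie above 0, from 0.28 for Son to 1.45 for Malat1 with all arrays, and Malat1 moves most, to 0.71 without both.

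All 9 members had a higher mean with hydrogen water, where 48.7% of all genes did. In 4 of the 9 (Malat1, Pnisr, Rsrp1 and Wsb1) all 4 hydrogen water arrays lay above all 4 controls, where 1.76% of all genes did; since the members were picked with this contrast in view, nothing is read from these counts. With fewer arrays more genes lie apart by construction. Without hydrogen water 2, which was the lowest of its group for 8 of the 9, 8 lay wholly apart (all but Ccnl2), as did 4.58% of all genes. Without control 3 and hydrogen water 4 the count was 5, and 5.91% of all genes. With each array centred on its own median it was 2, and 1.00% of all genes. The median difference of the 9 was 0.78, beside −0.005 over all genes, whose 5th and 95th percentiles were −0.27 and 0.27.

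The median SD of the 9 was 0.35 with hydrogen water and 0.25 in controls, against 0.16 and 0.17 over all genes. In controls Pnisr, Son and Ccnl1 had SDs of 0.06, 0.07 and 0.16, below that of the median gene. The SD was larger with hydrogen water in 6 of the 9, as in 47.3% of all genes. Hydrogen water 4 was the highest of the 8 arrays for 8 members, as it was for 16.6% of all genes. Hydrogen water 2 was the lowest of its group for 8, as for 27.4% of all genes, and control 3 was the lowest of the 8 arrays for 4, as for 18.4%. The mean of the 9, each centred on its own average, was 0.40, −0.12, 0.44 and 0.76 on hydrogen water 1 to 4, against −0.27, −0.28, −0.66 and −0.27 on controls 1 to 4. That score averaged 0.37 ± 0.36 over hydrogen water arrays and −0.37 ± 0.19 over controls (SD, n = 4 each), and hydrogen water 2 was the array of its group nearest to the controls.

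Other groups of transcripts also varied between these arrays. The small nucleolar RNA median was 0.30, 0.26, 0.00 and −0.90 on hydrogen water 1 to 4, against 0.04, 0.29, −0.29 and 0.19 on controls 1 to 4, so the arrays that were highest and lowest for the members were the 2 lowest for small nucleolar RNAs. Markers of Kupffer cells, the macrophages of the liver, were higher in the mean with hydrogen water in 10 of 10 measured, where 48.7% of all genes were. Their list means were −0.17 to 0.60, against −0.42 to 0.14 in controls. Their lowest level was that of Marco (4.88), and Clec4f stood at 8.19. Sinusoidal endothelial markers were higher in 8 of 8, with list means of −0.17 to 0.42 against −0.45 to 0.09 in controls, and their levels ran from 6.73 (Pecam1) to 10.43 (Clec4g). The mean differences of the other marker lists ran from −0.17 (cholangiocytes) to 0.07 (erythroid cells), with −0.10 for stellate cells. Array by array, the Kupffer cell list stood at −0.17, 0.15, 0.22 and 0.60 on hydrogen water 1 to 4, against −0.28, −0.24, 0.14 and −0.42 on controls 1 to 4. The sinusoidal endothelial list stood at −0.17, 0.42, 0.27 and 0.13 on hydrogen water 1 to 4, against 0.09, −0.45, −0.29 and 0.00 on controls 1 to 4. Hydrogen water 4 was highest for the members and for the Kupffer cell list, and hydrogen water 3 was high for the members and both lists. Hydrogen water 1 was high for the members and below average for both lists. The part of these cells and of small nucleolar RNA recovery in the members' differences was not tested. More cells of a type and more RNA per cell cannot be told apart in whole liver.

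**Figure D3:**
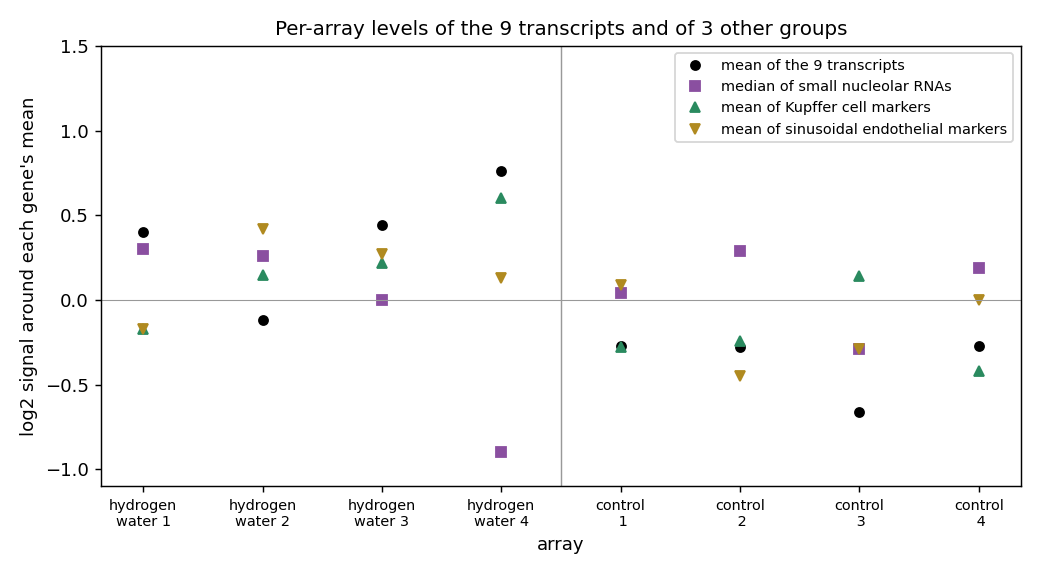
Log2 signal around each gene's mean (vertical axis) on each array: the mean of the 9 transcripts, the median of 54 small nucleolar RNAs and the means of 10 Kupffer cell and 8 sinusoidal endothelial markers. The mean of the 9 is highest on hydrogen water 4 (0.76), where the small nucleolar RNAs are lowest (−0.90).

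Across the 8 arrays the 9 transcripts varied together. The 36 pairs had a median Pearson r of 0.82, from 0.51 (Nktr and Ccnl2) to 0.95 (Pnisr and Leng8, Rsrp1 and Wsb1), and a median Spearman rho of 0.72. These correlations include the difference between the groups. With each group's mean removed the median r was 0.59, and 25 of the 36 pairs stood at 0.5 or more. Without control 3 and hydrogen water 4, and with group means left in, the median over the other 6 arrays was 0.83. It ran from 0.28 (Ccnl1 and Ccnl2) to 0.99 (Pnisr and Wsb1). These values again include the difference between the groups, by which the members were picked. All pairs share the same 8 arrays and their scaling. The share of all gene pairs with such values was not computed, so the shared variation is not shown to be particular to these transcripts.

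With group means removed the transcripts did not all vary alike. Malat1, Ccnl2, Rsrp1 and Wsb1 correlated with each other at 0.67 to 0.86. Pnisr, Son and Nktr did so at 0.82 to 0.96. Between these sets r was lower, at 0.56 or less, with −0.12 for Wsb1 and Nktr. Leng8 stood at 0.49 to 0.85 with the other members and Ccnl1 at 0.37 to 0.78. The first set is also the 4 members that were lowest on control 3. The second set is also the 3 members for which control 3 was the highest control. The sets therefore differ in the direction in which this 1 array lay. Without control 3 and hydrogen water 4, and with group means left in, Wsb1 and Nktr stood at 0.87 and Malat1 and Ccnl2 at 0.33, so the order of these pairs was turned round. The sets were formed after their values were seen. The closely related Ccnl1 and Ccnl2 had an r of 0.63, and 0.37 with group means removed.

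**Figure D4:**
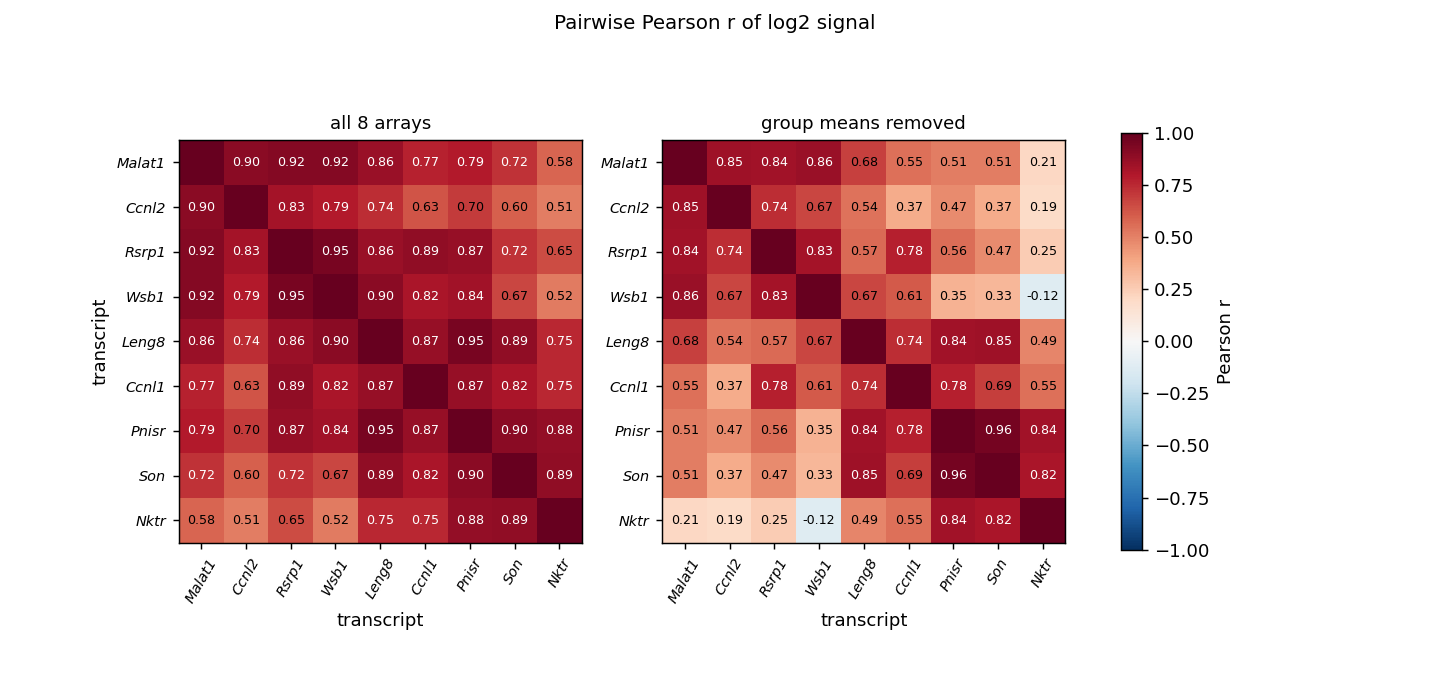
Pairwise Pearson r of log2 signal between the 9 transcripts over 8 arrays (left) and after each group's mean was removed (right), from −1 (blue) to 1 (red). On the left all 36 values are at least 0.51; on the right Wsb1 and Nktr reach −0.12 and Pnisr and Son 0.96.

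The members were not each other's nearest neighbours among all genes. Rsrp1 ranked 15th of 19937 genes by its correlation with Wsb1, and Leng8 by its correlation with Pnisr held rank 19. For Son the closest member, Pnisr, had rank 207. The genes above the median level that were most like the mean of the 9 were Rsad1 (r = 0.983 over 8 arrays), the peptide transporter Tap1 (0.980), Tpra1 (0.976), the ubiquitin protease Usp40 (0.974), the Golgi protein gene Golgb1 (0.973) and Mertk, a receptor by which macrophages take up dying cells (0.972). Most opposite were the complement factor H-related gene Cfhr3 (−0.985), Lipt2 (−0.983), Nsmce4a (−0.980), Rxylt1 (−0.977), Mpc1, a subunit of the mitochondrial pyruvate carrier (−0.974), and the mitochondrial ribosomal gene Mrps24 (−0.971). In all, 571 of the 19929 other genes reached an r of 0.8 or more and 470 were as strongly negative. Single members were nearest to As3mt (Malat1, 0.980), Slc25a15 (Pnisr, 0.993), Aldoa (Rsrp1, 0.989), Tpra1 (Leng8, 0.976), Dnajc30 (Wsb1, 0.985), Ahcyl2 (Nktr, 0.984), Cpt2 (Ccnl1, 0.984), Pef1 (Ccnl2, 0.981) and Pfas (Son, 0.992). These genes were picked as extremes among all genes above the median level, over only 8 arrays. Their correlations include the difference between the groups, and shared control was not tested.

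Other genes of the same pathways, which are not members, were read from the fit over all genes, in 6 lists of 101 genes together, 87 of them measured. With limma and Benjamini-Hochberg adjustment over all 19938 genes, 0 of the 87 passed an adjusted p of 0.05, as did 0.0% of all genes, and the lowest adjusted p among the 87 was 0.617. By the unadjusted limma p, 7 of the 87 were under 0.05 on the higher side with hydrogen water and 2 on the lower side, where 3.6% of all genes were higher and 3.57% lower by the same rule. Of the 87, 62 had a higher mean, where 48.7% of all genes did, and their median difference was 0.11. Without hydrogen water 4 these were 53 and 0.05, and without hydrogen water 2 they were 70 and 0.21. The median over all genes was then −0.005 and −0.007, and the share of all genes with a higher mean was not computed. The related genes under 0.05 on the higher side depended on single arrays. They numbered 20 without hydrogen water 2, and 4 without hydrogen water 3 or without hydrogen water 4. Over all 19938 genes the same count was 718 with all arrays. It was 991 without hydrogen water 2, 472 without hydrogen water 3 and 547 without hydrogen water 4. The balance over all genes depended on scaling, with 50.2% of calls at that unadjusted p on the higher side as deposited, 33.3% after quantile normalization and 26.3% with arrays centred on their medians.

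Kinases of the speckle and of transcription were measured in 14 of 15 listed genes, of which 12 had a higher mean. By the unadjusted limma p, 4 were under 0.05 on the higher side. For this list and those below, the shares over all genes were 48.7% and 3.6%. The lists, too, were chosen with earlier results of these data known. Clk1, which phosphorylates SR splicing factors and whose own transcript retains introns, read 9.10, 8.80, 9.17 and 9.17 with hydrogen water, against 8.74, 8.50, 8.74 and 8.46 in controls. Its groups did not overlap, and the difference was 0.45 (SE 0.12, limma adjusted p = 0.618). Prpf4b, a kinase of the spliceosome, differed by 0.34 (SE 0.12, limma adjusted p = 0.651), and Ccnt1, the cyclin of an elongation kinase, by 0.35 (SE 0.14, limma adjusted p = 0.686). Prpf4b had a correlation of 0.93 with the mean of the 9.

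Among 16 measured transcripts of 19 listed as known for retained introns, 12 had a higher mean, with a median difference of 0.24, the highest of the 6 lists. The RNA helicase gene Ddx17 read 9.19, 8.95, 8.85 and 9.49 with hydrogen water, against 8.63, 8.44, 8.68 and 8.52 in controls, again with no overlap (0.56, SE 0.14, limma adjusted p = 0.617). Clk4, a relative of Clk1, differed by 0.34 (SE 0.15, limma adjusted p = 0.687), with overlapping groups. Clk1 and Clk4 are on both of these lists. Srsf5, Tra2a, Snrnp70 and Luc7l3 are on the list of retained introns and on that of SR and scaffold proteins below. Cdk11b is on the list of kinases and on that of relatives and partners below. The counts of these lists are therefore not independent.

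The SR proteins and scaffold proteins of the speckle had 21 of 29 measured genes with a higher mean and a median difference of 0.14. Srsf1, a founding SR splicing factor, differed by 0.36 (SE 0.14), the export factor helicase Ddx39b by 0.37 (SE 0.18) and Srsf6 by 0.26 (SE 0.15), with limma adjusted p-values of 0.680, 0.708 and 0.751. Without hydrogen water 4 the Srsf6 difference was 0.13 and that of Ddx39b 0.24, and without hydrogen water 2 that of Ddx39b was 0.56. Paraspeckle proteins had 10 of 13 with a higher mean and a median of 0.11. Ewsr1 differed by 0.29 (SE 0.12), Tardbp by 0.31 (SE 0.17) and the cleavage factor subunit Nudt21 by −0.24 (SE 0.11), and their limma adjusted p-values were 0.687, 0.744 and 0.689. Tardbp stood at 0.16 without control 3, and Ewsr1 at 0.19 without hydrogen water 3.

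Of 15 other long non-coding RNAs listed, 7 were measured and 5 had a higher mean (median 0.07). Tug1 differed by 0.38 (SE 0.20), Norad by 0.28 (SE 0.14) and the dim Snhg11 by 0.19 (SE 0.12), with limma adjusted p-values of 0.737, 0.726 and 0.801. Without hydrogen water 4 Tug1 differed by 0.21, Norad by 0.14 and Snhg11 by 0.28, and without hydrogen water 2 Snhg11 differed by 0.11. Relatives and partners of the members had no common direction, with 7 of 15 higher and a median of −0.02. Cdk11b, the kinase partner of the cyclins L, differed by 0.22 (SE 0.13), the splicing cyclophilin Ppih by −0.34 (SE 0.13) and the ubiquitin ligase subunit Rnf7 by −0.29 (SE 0.16), and the limma adjusted p-values were 0.779, 0.687 and 0.753. Cdk11b stood at 0.13 without hydrogen water 4 and 0.34 without hydrogen water 2, and Rnf7 at −0.46 without control 3 and −0.19 without control 2.

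**Figure D5:**
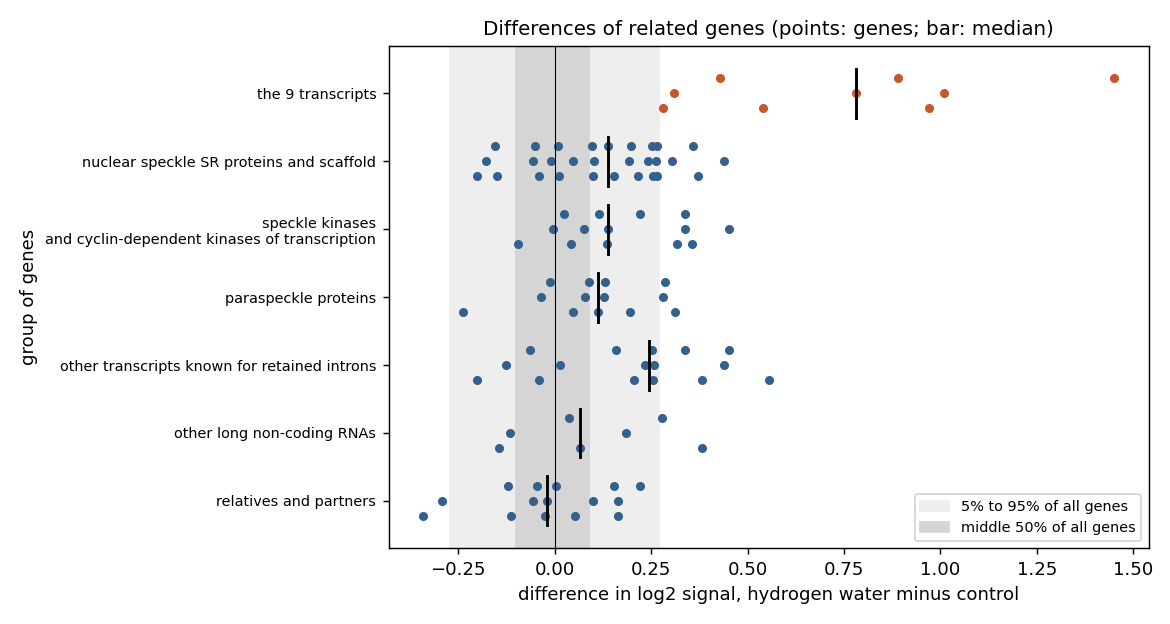
Difference in log2 signal, hydrogen water minus control (horizontal axis), for the 9 transcripts and for 6 lists of related genes; points are genes, bars are medians and shading gives the spread of all genes. The list medians lie between −0.02 and 0.24, and the 9 transcripts, which were picked for this difference, have a median of 0.78.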

How the data were processed

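Groups were taken from the sample titles. The authors deposited 1 table of log2 signals. The submitters' processing notes name Affymetrix Expression Console. The program's version was not given in the sources used here. The same holds for background correction, scaling, probe summary and genome build. The log2 scale was read from the values. Of 35556 rows, 21789 named 1 gene, 1621 several and 12146 are unnamed here. Symbols were updated by Entrez identifier in a RefSeq table of GRCm38.p6, used for names and promoter sequences only, and 19856 of 19938 genes matched. A gene's row with the highest mean was used. A second row that names Malat1 together with another gene was left out.

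The linear model used R 4.3.3 and limma 3.58.1 (lmFit, then eBayes; 2 groups, no covariate, two-sided, Benjamini-Hochberg over 19938 genes, threshold 0.05), after the code was tested on simulated data. Members and lists were chosen with earlier results of these data known. Named genes were all members, the 3 genes of each list with the smallest unadjusted p, the 6 genes most like and the 6 most unlike the members' mean, and each member's nearest gene, above the median level (5.87) and without provisional gene models. No depth applies to arrays, and their number limits the precision. Alternatives were 2 other normalizations, other rows per gene, a filter on level, arrays left out, array weights and a block on replicate number. Amino acid sequences were not analysed here. Plots were drawn with matplotlib 3.10.9.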

Additional observations from a re-analysis of the deposited data

Results flagged for a closer look

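An array that lay far from the other 3 of its group was looked for with Dixon's ratio, the gap to the nearest array divided by the range of the group, in 54 groups of 4 arrays. Chance passes about 1 group in 20 over the 95% critical value, and 4 of the 54 did so. For the mean of the 9 members, control 3 lay below the other controls with a ratio of 0.970 (−0.66, against −0.28 to −0.27). Malat1, which is part of that mean, was also low on control 3, with a ratio of 0.887, so these groups are not independent. On control 3, Malat1 stood at −1.81 from the mean of the other controls. Of the 9 members, 6 lay below that mean on control 3, as did 48.3% of all genes, while Pnisr (0.09), Nktr (0.35) and Son (0.08) lay above it. Wsb1 was low on hydrogen water 2, with a ratio of 0.832. Srsf6 was high on hydrogen water 4, at 9.34 against 8.77 to 8.84 on the other hydrogen water arrays, with a ratio of 0.889.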

How the results depend on the processing

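All 9 differences stayed above 0 under each of the 12 alternatives that could move them. The replicate block, the mean of a gene's rows and the filter on level could not. The median difference over the members lay between 0.55 and 0.93. Each difference moved by less than its SD between arrays. Where 1 array was left out, from 1 group or from each group, that outcome was fixed in advance. With arrays centred it was fixed too, since the array medians, from 5.27 to 5.37, lay too close together. In those settings it is no sign of stability. Without control 3 and hydrogen water 4, Malat1 went from 1.45 to 0.71 and Ccnl2 from 0.31 to 0.08, the smallest difference. The number of members wholly apart, 4 as deposited, was 2 with each array centred on its own median, and between 4 and 8 with single arrays left out. Of all genes, 1.76% lay apart in this way as deposited, 1.00% with arrays centred and 2.61% to 4.58% with single arrays left out. Pairs with r of 0.5 or more numbered 36, 33 by Spearman rho and 25 with group means removed. Over all genes 0 passed the adjusted threshold of limma in most settings, with between 0 and 1 when single arrays were left out: Sucnr1 without control 2 and Aqp8 without control 3. Without both control 3 and hydrogen water 4 there were 3 (Aqp8, Mir297b and Usp17ld). Of these genes, 0 are members, and they are named after their values were seen. At an unadjusted p below 0.05 the fit gave 718 higher and 711 lower genes, against 588 and 1179 after quantile normalization, 421 and 1177 with arrays centred on their medians, and 472 and 486 without hydrogen water 3. For related genes the 7 higher became 11 with array weights, 4 with arrays centred, and 4 to 20 with single arrays left out. Over all 19938 genes the 718 higher became 1014, 421 and 472 to 991 in the same settings. Of the related genes 0 passed in any setting. Same-numbered arrays did not pair (r between −0.16 and 0.06 over genes); with the replicate block 0 genes passed the threshold; the block cannot change a difference in this balanced design (median 0.78). No member had a second row, so that alternative gave no value for them. The number of arrays and the closeness of several groups (0.02 for Malat1, 0.05 for Rsrp1) limit these comparisons.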
